A study of Mus musculus with 13 samples.

Results

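The data described here are 6 of the 13 expression arrays of the series, the 3 aged and the 3 young aorta arrays labelled as receptor knockout, and the comparison is aged minus young over all 21225 measured genes. Aged mice were 12 months old and young mice 3 to 4 months per the study's design text, and all were male C57BL/6. Both groups carry the same deletion of the mineralocorticoid receptor gene Nr3c2, which the design text places in smooth muscle cells. By that design the fibroblasts, endothelium and immune cells of these mice are not targets of the deletion. The sources used here do not name the promoter that drives it. The remaining 7 arrays, 4 aged and 3 young, are from MR-intact mice, labelled wild type, of the same ages, sex and strain. They entered the same model and are used below to say where aging differed between the genotypes. The study asked how aortic RNA changes with age and what the smooth muscle receptor has to do with that change. Nothing in the labels says whether the arrays of a group are from different animals. The p-values below therefore speak of the scatter among these arrays, part of which may be technical.

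The aortic wall holds its shape through a matrix that smooth muscle cells of the media and fibroblasts of the adventitia secrete. Fibrillar collagens are made as procollagen, hydroxylated and chaperoned in the endoplasmic reticulum, trimmed at both ends outside the cell and then cross-linked by lysyl oxidases. Elastic fibres form on a scaffold of microfibrils and fibulins, and basement membranes of type IV collagen and laminin surround each smooth muscle cell. The mineralocorticoid receptor is a nuclear receptor that binds aldosterone and glucocorticoids, and in vessels it is known for its part in vascular tone and fibrosis. Aging arteries of mice are also known to gather B cells, plasma cells and T cells in the adventitia and the surrounding fat.

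Expression is given as log2 values, so that a difference of 1 is a doubling. Array medians lay between 5.85 and 5.97. On the knockout arrays the contractile smooth muscle list, 30 genes such as Myh11 and Acta2, averaged 9.88, 9.25 and 9.82 on the aged knockout arrays, against 9.93, 10.01 and 9.98 on the young knockout arrays, which is above the array medians, so that the labelled tissue had its defining markers on every array. White adipocyte markers averaged 10.51, 10.94 and 10.78 on the aged knockout arrays, against 10.68, 10.67 and 10.78 on the young knockout arrays, so that fat transcripts were present in both age groups. On principal component 1, with 34.7% of the variance, the aged knockout arrays read 44.5, 35.2 and 14.4. The young knockout arrays read -12.4, -15 and 1.5, and the MR-intact arrays lay between -16.1 and -3.7. Aged replicates 1 and 2 stood apart from all others, while aged replicate 3 was nearer to young knockout replicate 3 than to either of them. The median SD of a gene was 0.148 among aged knockout and 0.096 among young knockout arrays. Counts are therefore also given with each knockout array left out. Titles mark every aged array with the letter A and every young array with B, and whatever those letters stand for cannot be told apart from age.

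Nr3c2 (Entrez 110784) itself read 6.14, 6.22 and 6.58 in aged knockout, against 6.26, 6.09 and 6.42 in young knockout aorta. The age groups overlapped, and aged minus young was 0.06 (exact permutation test, two-sided p = 0.7, where 20 regroupings of 3 against 3 arrays allow 0.1 at the lowest). Nr3c1, the glucocorticoid receptor gene, read 9.01, 9.07 and 8.96 in aged knockout, against 8.94, 8.96 and 9.02 in young knockout aorta. Its difference was 0.04 (exact permutation test, two-sided p = 0.4). All knockout readings of Nr3c2 were below the lowest MR-intact reading, 6.62. Where its probes lie relative to the deleted part of the gene is not stated, and a probe outside that part would check nothing.

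With age, knockout aorta had lower RNA of some collagens and of enzymes, scaffold proteins and proteases that build and remodel the matrix, and higher RNA of some immunoglobulin, lymphocyte, macrophage and histone genes. At a limma adjusted p under 0.05 over all genes, 156 of 21225 genes were called (0.735%). Of these, 67 were higher (0.316%) and 89 lower (0.419%), and the median difference was 0.84 for those higher and -0.55 for those lower. With every array centred on its median the split was 69 higher and 143 lower. In each of the 156 the arrays of the age groups did not overlap, as in 16.4% of all genes. At an unadjusted limma p under 0.05 there were 3361 genes (15.8%). A total of 11 called genes had a group mean below 3.99, the lowest lower quartile of a knockout array, where a fold change is least certain.

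**Figure D1:**
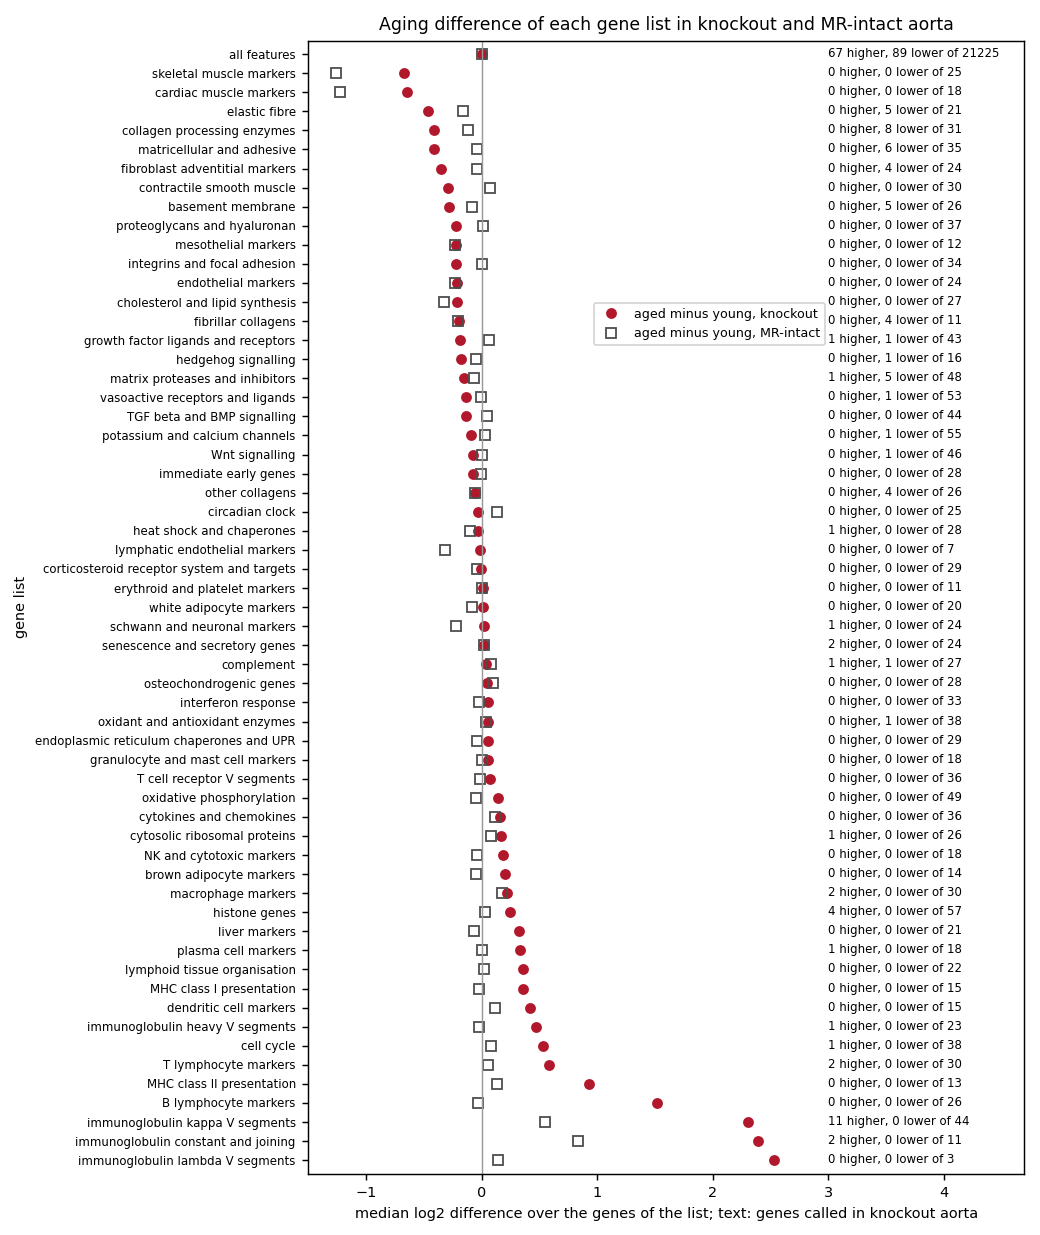
Median log2 difference with age of each gene list (rows) in knockout aorta (filled circles, 3 aged and 3 young arrays) and in MR-intact aorta (open squares, 4 aged and 3 young arrays), with the genes called in knockout aorta written at the right. In knockout aorta the skeletal muscle, cardiac muscle and matrix lists lie left of 0 and the immunoglobulin, B and T lymphocyte lists right of it, while the median over all features is 0.00 in knockout and 0.01 in MR-intact aorta.

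Genes that build the matrix were a large share of the decrease. A set of 8 lists (fibrillar collagens, other collagens, collagen processing, elastic fibre, basement membrane, proteoglycans, matricellular proteins, proteases with their inhibitors) held 235 measured genes. Of these 37 were called lower and 1 higher, while 0.419% of all 21225 features were called lower and 0.316% higher. Of all 89 genes called lower, 41.6% came from these lists. The lists were written with earlier results of these data known, so that this share is no test. The median difference of the 235 genes was -0.26, against 0.00 over all features. In a bulk sample, fewer cells of a type and less RNA per cell cannot be told apart.

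Fibrillar collagens held the largest decreases of these lists. Of 11 measured genes 4 were called lower and none higher, while 0.419% of all features were called lower. Col1a1 (Entrez 12842), which encodes the major chain of type I collagen, read 8.82, 8.88 and 8.74 in aged knockout, against 9.99, 9.89 and 10.02 in young knockout aorta. The aged arrays lay within 0.13 of each other and 1.01 below the lowest young array, and the difference was -1.15 (SE 0.10, limma adjusted p = 0.000765). Col1a2, the partner chain, read 9.32, 8.94 and 9.12 in aged knockout, against 10.09, 10.05 and 10.16 in young knockout aorta, a difference of -0.97 (SE 0.10, limma adjusted p = 0.00175). Col3a1, the chain of type III collagen, read 8.50, 8.56 and 8.66 in aged knockout, against 9.39, 9.32 and 9.42 in young knockout aorta, a difference of -0.80 (SE 0.08, limma adjusted p = 0.00186). Col5a2, of type V collagen that starts fibril assembly, read 6.50, 6.48 and 6.55 in aged knockout, against 6.95, 6.97 and 6.98 in young knockout aorta, a difference of -0.46 (SE 0.07, limma adjusted p = 0.0123). The 7 other fibrillar chains were not called, and the list's median was -0.19. Among 26 other collagens 4 were called lower, all 3 main chains of type VI collagen, a beaded filament beside cells, and Col14a1, a fibril-associated collagen. Col6a3 had 7.83, 7.60 and 7.72 in aged knockout, against 8.32, 8.25 and 8.48 in young knockout aorta, a difference of -0.63 (SE 0.10, limma adjusted p = 0.0188). Col6a1, Col6a2 and Col14a1 differed by -0.65, -0.65 and -0.52 (limma adjusted p = 0.0445, 0.038 and 0.0453). On Col6a1, Col6a2 and Col14a1 aged knockout replicate 2 was the lowest array, at 7.33, 7.78 and 8.91.

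Genes of the machinery that matures collagen fell as well. Of 31 measured genes 8 were called lower (0.419% of all features were). All 31 had a difference below 0, and 20 were lower without overlap of the age groups (8.38% of all features were). Adamts2 (Entrez 216725), the protease that removes the amino-terminal end of procollagen, read 8.78, 8.63 and 8.66 in aged knockout, against 9.57, 9.56 and 9.52 in young knockout aorta. Both groups were tight and 0.74 apart at their nearest arrays, and the difference was -0.86 (SE 0.08, limma adjusted p = 0.000765). Lox, the lysyl oxidase that cross-links collagen and elastin, read 8.70, 8.66 and 8.80 in aged knockout, against 9.68, 9.67 and 9.68 in young knockout aorta, a difference of -0.96 (SE 0.13, limma adjusted p = 0.00911). Its relative Loxl2 differed by -0.56 (limma adjusted p = 0.0453). At the other end of procollagen, the protease Bmp1 read 8.53, 8.61 and 8.38 in aged knockout, against 8.93, 8.87 and 8.89 in young knockout aorta, a difference of -0.39 (SE 0.07, limma adjusted p = 0.0373). Its enhancers Pcolce and Pcolce2 fell with it, by 0.50 and 0.60 (limma adjusted p = 0.0164 and 0.0189). Inside the cell, the collagen chaperone gene Serpinh1 had 8.61, 8.46 and 8.65 in aged knockout, against 9.07, 9.01 and 8.98 in young knockout aorta, a difference of -0.45 (SE 0.07, limma adjusted p = 0.0164). P3h1, which hydroxylates collagen prolines, differed by -0.40 (SE 0.07, limma adjusted p = 0.031).

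Because these genes moved together, the promoters of 4 called matrix genes are shown. They had the largest decreases among the genes matched in the RefSeq promoter table, with the genes of 1 chromosome left out of the choice. Each window runs from 250 bases before to 50 after the annotated start, on GRCm38.p6. Capitals mark 4 motifs on either strand: the CCAAT box (which the other strand shows as ATTGG here), the TATA box written as TATAAA (which the other strand shows as TTTATA here), the GC box written as GGGCGG (which the other strand shows as CCGCCC here) and the E box written as CACGTG (its own other strand). No motif overlaps another in these windows. The windows are Col1a2 at chr6:4505368-4505667 (+ strand), Olfml2b at chr1:170644282-170644581 (+ strand), Adamts2 at chr11:50601835-50602134 (+ strand) and Fbln1 at chr15:85205699-85205998 (+ strand), for Fbln1 the first of 2 listed starts.
Col1a2: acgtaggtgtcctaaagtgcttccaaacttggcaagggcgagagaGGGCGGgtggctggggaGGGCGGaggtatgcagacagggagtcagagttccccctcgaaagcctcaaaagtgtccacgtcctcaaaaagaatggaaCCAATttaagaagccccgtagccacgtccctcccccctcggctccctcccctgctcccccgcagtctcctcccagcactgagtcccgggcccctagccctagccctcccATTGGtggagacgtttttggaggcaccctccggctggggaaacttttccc
Olfml2b: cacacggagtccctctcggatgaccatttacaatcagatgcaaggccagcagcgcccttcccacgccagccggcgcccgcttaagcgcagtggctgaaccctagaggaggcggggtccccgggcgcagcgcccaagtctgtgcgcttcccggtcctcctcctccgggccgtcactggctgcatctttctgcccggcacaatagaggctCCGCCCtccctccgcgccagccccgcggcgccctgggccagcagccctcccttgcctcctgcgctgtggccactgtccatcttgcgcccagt
Adamts2: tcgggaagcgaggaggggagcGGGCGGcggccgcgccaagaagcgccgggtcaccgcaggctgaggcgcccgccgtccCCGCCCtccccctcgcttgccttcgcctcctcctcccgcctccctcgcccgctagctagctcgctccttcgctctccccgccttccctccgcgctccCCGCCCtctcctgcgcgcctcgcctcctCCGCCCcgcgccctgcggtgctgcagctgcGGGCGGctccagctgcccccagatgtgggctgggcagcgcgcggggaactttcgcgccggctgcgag
Fbln1: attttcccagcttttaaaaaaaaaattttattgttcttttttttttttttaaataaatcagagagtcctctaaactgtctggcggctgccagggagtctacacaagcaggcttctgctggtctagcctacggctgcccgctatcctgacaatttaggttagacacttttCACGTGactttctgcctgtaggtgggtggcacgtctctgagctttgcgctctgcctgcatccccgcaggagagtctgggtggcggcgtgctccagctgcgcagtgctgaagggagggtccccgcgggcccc
The 4 windows share no arrangement of these motifs. Col1a2 holds CCAAT once on each strand and GGGCGG 2 times, Adamts2 holds GGGCGG 5 times over both strands, Olfml2b holds it 1 time and Fbln1 holds CACGTG 1 time. Of the 37 called matrix genes 25 matched a promoter. Among these 25 promoters the GC box was in 64%, against 35.9% of all 27025 promoters. The CCAAT box was in 24%, against 37.9% of all promoters, the TATA box in 4%, against 14.2%, and the E box in 4%, against 7.24%. A match is a run of letters and not a bound site, and whether these shares have anything to do with age was not tested.

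Elastic fibre and basement membrane genes followed. Of 21 elastic fibre genes 5 were called lower (0.419% of all features were), none higher, and the median was -0.47. Fbln1 (Entrez 14114), a fibulin that binds fibronectin and elastic fibres, read 8.54, 8.56 and 8.55 in aged knockout, against 9.35, 9.39 and 9.40 in young knockout aorta. No other called gene of these lists had so little spread, and the difference was -0.83 (SE 0.09, limma adjusted p = 0.00259). Fbln2, its relative, differed by -0.52, and the microfibril genes Mfap2, Ltbp3 and Adamtsl4 by -0.47, -0.40 and -0.46 (limma adjusted p = 0.0482, 0.0445, 0.022 and 0.0169). Of 26 basement membrane genes 5 were called lower (0.419% of all features were), with a median of -0.28. They were the type IV collagen chains Col4a2 and Col4a5, the laminin chain Lamc1, the heparan sulfate proteoglycan agrin (Agrn) and Pxdn, a peroxidase that cross-links type IV collagen. Pxdn read 8.40, 7.99 and 8.34 in aged knockout, against 8.98, 8.79 and 9.02 in young knockout aorta, a difference of -0.68 (SE 0.11, limma adjusted p = 0.0186). Agrn read 7.25, 7.21 and 7.36 in aged knockout, against 7.75, 7.83 and 7.90 in young knockout aorta, a difference of -0.55 (SE 0.08, limma adjusted p = 0.012). The other 3 fell by 0.39 to 0.52.

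Matricellular proteins sit in the matrix and act on cells more than they bear load. Of 35 such genes 6 were called lower (0.419% of all features were), and the median was -0.41. Olfml2b (Entrez 320078), an olfactomedin-like secreted protein, read 8.58, 7.99 and 8.55 in aged knockout, against 9.19, 9.34 and 9.29 in young knockout aorta, a difference of -0.90 (SE 0.13, limma adjusted p = 0.0123). Aged replicate 2 lay 0.56 below its group's next array. Sparc, a collagen-binding protein, read 11.99, 11.89 and 11.95 in aged knockout, against 12.41, 12.44 and 12.58 in young knockout aorta, a difference of -0.53 (SE 0.07, limma adjusted p = 0.00959). Ccn5, Olfml3, Smoc1 and the tenascin gene Tnxb differed by -0.76, -0.65, -0.58 and -0.45 (limma adjusted p = 0.0482, 0.0483, 0.0489 and 0.0464). Of 48 proteases and inhibitors 5 were called lower and 1 higher. Mmp2, the gelatinase that degrades type IV and denatured collagen, read 9.28, 8.98 and 9.14 in aged knockout, against 9.69, 9.70 and 9.77 in young knockout aorta, a difference of -0.59 (SE 0.08, limma adjusted p = 0.00911). The exception was Mmp3, stromelysin 1, at 7.40, 7.83 and 7.66 in aged knockout, against 6.92, 6.81 and 6.79 in young knockout aorta, a difference of 0.79 (SE 0.16, limma adjusted p = 0.0489). Mmp16, Mmp23, Adamts8 and Htra3 fell by 0.55 to 0.60. None of 37 proteoglycan and hyaluronan genes was called by limma, and those with the smallest p, among them Gpc6 and Has3, had differences of -0.59 and -0.32 (limma adjusted p = 0.0799 and 0.0751).

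**Figure D2:**
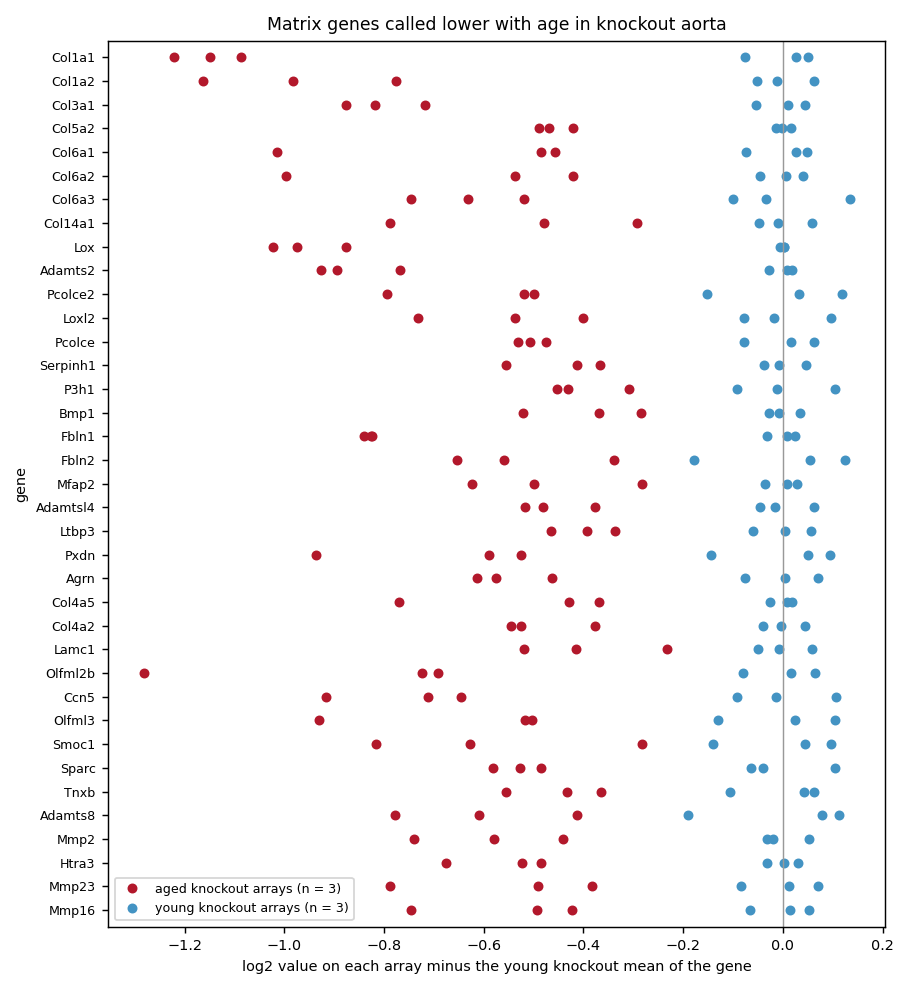
Log2 value on each of the 3 aged knockout arrays (red) and the 3 young knockout arrays (blue) minus the young knockout mean, for the 37 matrix genes called lower (rows, by list and then by size). Young arrays lie around 0 and every aged array lies to their left, with Fbln1 the tightest and Olfml2b on aged replicate 2 the farthest point at left.

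The median of all matrix genes together changed little between settings, while single lists and the number of calls changed more. Other collagens had a median of -0.055 with all arrays. It was 0.002 without young knockout replicate 1 and 0.032 with the mean of B lymphocyte and immunoglobulin genes as a covariate. Collagen processing went from -0.416 to -0.286 with the contractile list's mean as a covariate. The median of the 235 genes was between -0.31 and -0.21 under all 17 alternative settings. Leaving out 1 knockout array at a time gave 5 to 57 of the 235 genes called lower. There were 5 without young knockout replicate 2 and 57 without aged knockout replicate 3. Over all features 11 and 308 genes were called lower in these settings, against 89 with all arrays. Only 1, Col1a1, was called when the spread came from the 6 knockout arrays alone. Contractile smooth muscle markers had lower means on all aged than on all young knockout arrays too, and aged replicate 2, at 9.25, was the lowest of all. With this list's mean as a covariate, an alternative chosen after seeing the data, 18 matrix genes were called lower and the median was -0.21. With the mean of B lymphocyte and immunoglobulin genes as a covariate 2 were called lower, Col1a2 and Adamts2, and the median was -0.28. Col1a1, Col1a2, Col3a1, Adamts2 and Fbln1 were called whichever knockout array was left out.

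A few fibroblast genes of the adventitia fell as well. Of 24 fibroblast markers 4 were called lower (0.419% of all features were), none higher, and the median was -0.35. Entpd2 (Entrez 12496), an enzyme that cleaves extracellular ATP, read 8.35, 8.08 and 8.24 in aged knockout, against 8.96, 8.93 and 9.01 in young knockout aorta, a difference of -0.74 (SE 0.07, limma adjusted p = 0.00134). It was called whichever array was left out and with the immune covariate. Pdgfrl, a receptor-like protein related to the PDGF receptors, read 6.46, 6.03 and 6.47 in aged knockout, against 7.29, 7.23 and 7.35 in young knockout aorta, a difference of -0.97 (SE 0.13, limma adjusted p = 0.00911). Pi16, a marker of adventitial fibroblasts, read 9.49, 8.53 and 9.37 in aged knockout, against 10.03, 10.04 and 10.04 in young knockout aorta. Its young arrays were within 0.02 of each other while aged replicate 2 was 0.84 below the next aged array, and the difference was -0.91 (SE 0.18, limma adjusted p = 0.0474). Clec3b, tetranectin, differed by -0.46 (SE 0.09, limma adjusted p = 0.0445). The PDGF receptor genes did not pass the test, Pdgfra at -0.38 and Pdgfrb at -0.49 (limma adjusted p = 0.0502 and 0.132).

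In the signalling lists single genes were called, while 0.419% of all features were called lower. Lower without overlap were 7 of 16 hedgehog, 14 of 53 vasoactive and 10 of 46 Wnt genes (8.38% of all features were). Higher without overlap were 0, 1 and 1 of them (8% of all features were). The medians of these lists were -0.18, -0.14 and -0.08. Hhip (Entrez 15245), which binds hedgehog ligands at the cell surface and is itself a hedgehog target, had the largest decrease of all 89 genes. It read 6.40, 6.30 and 6.09 in aged knockout, against 7.58, 7.36 and 7.47 in young knockout aorta, so that every aged array was at least 0.96 below every young array, a difference of -1.21 (SE 0.14, limma adjusted p = 0.00259). It was the only one of 16 hedgehog genes called. The hedgehog target Gli1 read 5.99, 5.88 and 5.90 in aged knockout, against 6.34, 6.25 and 6.19 in young knockout aorta, a difference of -0.34 that missed the threshold (limma adjusted p = 0.056). The receptor genes Smo and Ptch1 differed by -0.42 and -0.24 (limma adjusted p = 0.0714 and 0.166), also not called. Ednra, the endothelin A receptor through which endothelin constricts smooth muscle, read 6.63, 6.64 and 6.67 in aged knockout, against 7.45, 7.30 and 7.34 in young knockout aorta. Its aged arrays spanned 0.04, and the difference was -0.71 (SE 0.08, limma adjusted p = 0.00259). It was the only one of 53 vasoactive receptor and ligand genes called, and the serotonin receptor Htr1b was next at -0.69 (limma adjusted p = 0.0629). Wnt5a, a secreted Wnt ligand, read 6.91, 7.20 and 7.05 in aged knockout, against 7.45, 7.52 and 7.52 in young knockout aorta, a difference of -0.44 (SE 0.08, limma adjusted p = 0.0307), and was the only one of 46 Wnt genes. Cacna1g, the T-type calcium channel, had 5.14, 5.11 and 5.35 in aged knockout, against 5.85, 5.56 and 5.72 in young knockout aorta, a difference of -0.51 (SE 0.09, limma adjusted p = 0.0325).

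Further genes called lower had the same form. The protease Bace2 read 6.53, 6.38 and 6.65 in aged knockout, against 7.31, 7.59 and 7.46 in young knockout aorta, a difference of -0.93 (SE 0.11, limma adjusted p = 0.00259). Rasl11b, a small Ras-like GTPase, read 6.40, 6.21 and 6.60 in aged knockout, against 7.04, 7.43 and 7.23 in young knockout aorta, a difference of -0.83 (SE 0.12, limma adjusted p = 0.0123). Both were lower on each aged array by at least 0.44. Rrad, a GTPase that inhibits calcium channels, differed by -0.79 (SE 0.15, limma adjusted p = 0.0391), and its MR-intact difference was 0.07. The complement gene C7, which joins the membrane attack complex, read 9.77, 9.81 and 9.44 in aged knockout, against 10.56, 10.48 and 10.47 in young knockout aorta, a difference of -0.83 (SE 0.12, limma adjusted p = 0.0123). Fstl3, which binds activins, differed by -0.74, Ext1, which builds heparan sulfate, by -0.70, and Dbn1, the actin-binding drebrin, by -0.68 (limma adjusted p = 0.0259, 0.0445 and 0.0289). Pi15, Crispld2, Clec11a, Nrep and Pcdh18 fell by 0.67 to 0.78. Gpx8, a peroxidase of the endoplasmic reticulum, differed by -0.42 (SE 0.08, limma adjusted p = 0.0448). Over the 89 genes called lower the young arrays spanned 0.14 at the median and 0.61 at most, for Nrep.

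One microRNA locus was called lower and was picked after its values were seen. Mir700 read 7.34, 7.56 and 7.13 in aged knockout, against 8.12, 7.83 and 8.07 in young knockout aorta, a difference of -0.66 (SE 0.13, limma adjusted p = 0.0453). It lies inside Rcan3, a calcineurin regulator, whose own difference was -0.16 (limma adjusted p = 0.487). The feature is named for the hairpin locus, so that mature and host RNA cannot be separated. Its mature products in RefSeq, with the seed in capitals (bases 2 to 8), are on chromosome 4 of GRCm38.p6, minus strand, at chr4:135416561-135416581 and chr4:135416601-135416622.
miR-700-3p: cACGCGGGaaccgaguccacc
miR-700-5p: uAAGGCUCcuuccugugcuugc
Without aged knockout replicate 1, and without each young knockout array in turn, Mir700 was not called.

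Lists of the muscle cell itself had no calls. Of 30 contractile smooth muscle genes limma called none, all 30 had a difference below 0, 11 were lower without overlap, and the median was -0.29 (-0.07 without aged replicate 2). Myocd, the coactivator that drives the contractile programme, read 9.17, 8.34 and 8.96 in aged knockout, against 9.33, 9.49 and 9.32 in young knockout aorta, a difference of -0.56 (limma adjusted p = 0.161). The focal adhesion gene Vcl, vinculin, read 9.63, 8.72 and 9.53 in aged knockout, against 9.86, 9.85 and 9.80 in young knockout aorta. In both genes aged replicate 2 was far below the other aged arrays. Among 34 integrin and focal adhesion genes none was called, 21 did not overlap and were lower, and Parva came nearest at -0.38 (limma adjusted p = 0.0568). Among 44 TGF-beta and BMP genes none was called, with 15 lower without overlap. Tgfb3 and Bmp4, ligands of these pathways, differed by -0.63 and -0.56 (limma adjusted p = 0.111 and 0.0959). Of all features 8.38% were lower without overlap and 0.419% were called lower.

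The increase with age was led by antibody genes. Ighg1 (Entrez 16017), the constant region of IgG1, read 12.41, 8.70 and 10.74 in aged knockout, against 5.50, 4.28 and 5.33 in young knockout aorta. The aged arrays differed among themselves by up to 3.71, with replicate 1 the highest, and all lay above the young arrays. The difference was 5.58 (SE 0.89, limma adjusted p = 0.0186). Ighm, the constant region of IgM, read 11.59, 10.73 and 10.43 in aged knockout, against 8.38, 8.06 and 9.37 in young knockout aorta, a difference of 2.31 (SE 0.33, limma adjusted p = 0.0123). Of 11 constant and joining genes these 2 were called, all 11 were above 0 and the median was 2.39. Ighg2c and the joining chain Jchain were as wide apart, at 4.14 and 3.74, and missed the threshold (limma adjusted p = 0.0532 and 0.0561). Of 44 kappa light chain V segments 11 were called higher (0.316% of all features were), all 44 were above 0 and 28 were higher without overlap (8% of all features were). Igkv3-4 read 10.01, 6.87 and 7.80 in aged knockout, against 3.07, 2.92 and 2.99 in young knockout aorta, a difference of 5.23 (SE 0.86, limma adjusted p = 0.0198). Igkv4-69 read 6.27, 4.97 and 5.72 in aged knockout, against 1.79, 2.52 and 3.34 in young knockout aorta, a difference of 3.10 (SE 0.39, limma adjusted p = 0.00745), and was the only immunoglobulin feature called whichever array was left out. All young knockout readings of Igkv3-4 and Igkv4-69 were below 3.99, the lowest lower quartile of a knockout array. There a fold change is least certain. Heavy chain V segments had 1 called of 23 and T cell receptor V segments 0 of 36. V segments resemble each other closely, so single segments are uncertain, and together they were 12 of the 67 genes called higher (17.9%).

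Genes of the cells that carry antibodies and T cell receptors had differences above 0 with few calls. Among 26 B lymphocyte markers limma called none, although 25 were above 0, 12 were higher without overlap (8% of all features were) and the median was 1.52. Ms4a1, the gene of CD20, read 9.80, 7.48 and 7.73 in aged knockout, against 4.73, 4.79 and 7.05 in young knockout aorta, a difference of 2.82 (limma adjusted p = 0.084). Young replicate 3 read 2.25 above the next young array and 0.44 below the lowest aged one. Of 18 plasma cell markers 1 was called, Slamf7, a surface receptor of plasma and cytotoxic cells, at 7.23, 5.44 and 5.84 in aged knockout, against 4.33, 4.13 and 4.89 in young knockout aorta, a difference of 1.72 (SE 0.35, limma adjusted p = 0.0482). Of 30 T lymphocyte markers 2 were called, while 0.316% of all features were called higher. Cd3g, a chain of the T cell receptor complex, read 7.65, 6.86 and 5.87 in aged knockout, against 4.67, 4.96 and 5.48 in young knockout aorta, a difference of 1.76 (SE 0.36, limma adjusted p = 0.0489), and Icos, a costimulatory receptor, differed by 1.25 (SE 0.26, limma adjusted p = 0.0498). Ptprcap, a partner of the leukocyte phosphatase CD45, read 8.21, 7.47 and 7.01 in aged knockout, against 6.46, 6.19 and 6.62 in young knockout aorta, a difference of 1.14 (SE 0.23, limma adjusted p = 0.0482). The chemokine gene Cxcl13, which draws B cells into follicles, read 9.98, 9.76 and 8.42 in aged knockout, against 5.77, 6.13 and 8.30 in young knockout aorta, a difference of 2.65 (limma adjusted p = 0.0561), and its receptor gene Cxcr5 differed by 1.57 (limma adjusted p = 0.0636). In both, young replicate 3 was the highest young array.

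**Figure D3:**
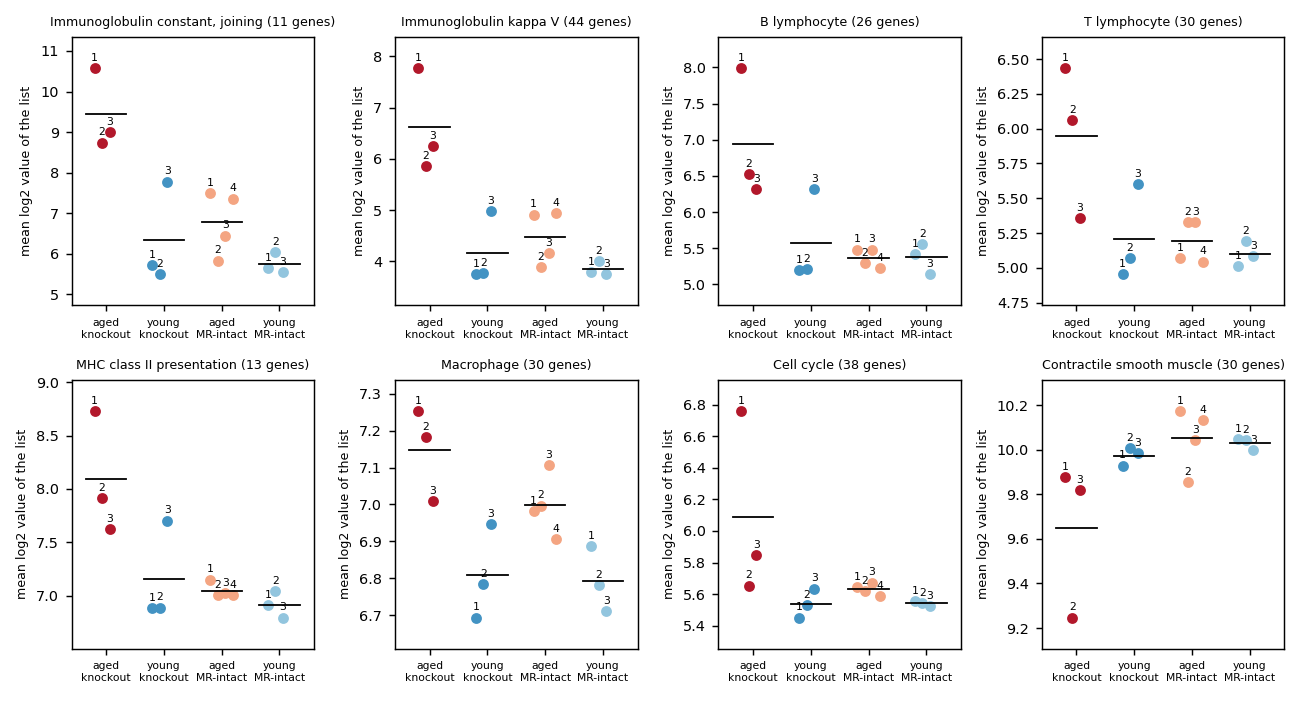
Mean log2 value of 8 gene lists on every array (points, numbered by replicate, with the group mean as a line), for aged knockout, young knockout, aged MR-intact and young MR-intact aorta. Aged knockout replicate 1 is the highest array on the 7 immune and cell cycle lists, young knockout replicate 3 is the highest young array on them, and aged knockout replicate 2 is the lowest array for contractile smooth muscle.

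The same arrays were high on each lymphocyte list. B lymphocyte markers averaged 7.99, 6.52 and 6.32 on the aged knockout arrays, against 5.20, 5.21 and 6.32 on the young knockout arrays. T lymphocyte markers averaged 6.44, 6.06 and 5.36 on the aged knockout arrays, against 4.95, 5.07 and 5.60 on the young knockout arrays. On both lists aged replicate 3 was level with or below young replicate 3. MHC class II genes averaged 8.73, 7.92 and 7.62 on the aged knockout arrays, against 6.88, 6.89 and 7.70 on the young knockout arrays, and none of 13 was called. Without aged replicate 3, a total of 73 genes of the 10 immune lists were called higher, without young replicate 3 there were 33, and without young replicate 2 there were 0, against 7 with all arrays. Kappa V segments called higher were 20 without aged replicate 3, 19 without young replicate 3 and 1 without young replicate 2, against 11 with all arrays. How many cells of each type a sample held was not measured.

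Some myeloid genes rose as well. Aif1 (Entrez 11629), the macrophage protein Iba1, read 5.05, 5.0 and 4.74 in aged knockout, against 3.95, 3.99 and 4.34 in young knockout aorta, a difference of 0.84 (SE 0.11, limma adjusted p = 0.00911). Cd209b, a lectin of tissue and lymph node macrophages, read 7.99, 7.55 and 6.33 in aged knockout, against 5.27, 5.47 and 6.05 in young knockout aorta, a difference of 1.70 (SE 0.33, limma adjusted p = 0.0448). These were the 2 called of 30 macrophage markers, whose median was 0.22, while 0.316% of all features were called higher. Tyrobp, the adaptor DAP12 of myeloid receptors, read 8.19, 8.45 and 8.09 in aged knockout, against 7.31, 7.59 and 7.80 in young knockout aorta, a difference of 0.68 (SE 0.13, limma adjusted p = 0.0449). Ms4a7, a tetraspan gene of macrophages, differed by 0.77 (SE 0.13, limma adjusted p = 0.0198). Scimp, an adaptor in antigen-presenting cells, read 6.92, 5.44 and 5.83 in aged knockout, against 4.61, 4.57 and 4.79 in young knockout aorta, a difference of 1.42 (SE 0.27, limma adjusted p = 0.038). Slpi, a secreted inhibitor of leukocyte proteases, read 7.89, 7.26 and 6.41 in aged knockout, against 6.02, 5.54 and 5.50 in young knockout aorta, a difference of 1.50 (SE 0.29, limma adjusted p = 0.0398). Cfp, properdin, which stabilises the alternative complement pathway, differed by 0.61 (SE 0.12, limma adjusted p = 0.0453). Gbp8, an interferon-inducible GTPase, differed by 0.99 (SE 0.17, limma adjusted p = 0.0215), while none of 33 interferon response genes and none of 36 cytokine and chemokine genes was called by limma.

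Outside the immune genes, several other genes were called higher. Among those given here the aged arrays spanned from 0.04 for Vwc2 to 0.86 for Cdh9. S100b (Entrez 20203), a calcium-binding protein of Schwann cells that fat cells also make, read 7.68, 8.31 and 8.07 in aged knockout, against 6.90, 7.21 and 6.87 in young knockout aorta, a difference of 1.03 (SE 0.16, limma adjusted p = 0.0186). The other 23 Schwann and neuronal markers were not called. Nnat, the imprinted gene neuronatin, read 8.57, 9.02 and 8.74 in aged knockout, against 6.76, 7.31 and 7.38 in young knockout aorta, a difference of 1.63 (SE 0.29, limma adjusted p = 0.0281). Apod, the lipid carrier apolipoprotein D, read 9.29, 9.44 and 9.26 in aged knockout, against 8.32, 8.59 and 8.62 in young knockout aorta, a difference of 0.82 (SE 0.13, limma adjusted p = 0.0197). Vwc2, a secreted BMP antagonist, had 7.64, 7.66 and 7.68 in aged knockout, against 6.84, 6.64 and 7.20 in young knockout aorta, a difference of 0.77 (SE 0.16, limma adjusted p = 0.0489). Cdh9, a cadherin, differed by 1.02 (SE 0.21, limma adjusted p = 0.0479), Serinc2 by 0.76 (SE 0.12, limma adjusted p = 0.0186), and the neurite genes Nrn1 and Fez1 by 0.84 and 0.84 (limma adjusted p = 0.0259 and 0.0316). Igfbp3, which binds insulin-like growth factors, read 7.37, 7.62 and 6.77 in aged knockout, against 6.17, 6.23 and 6.47 in young knockout aorta, a difference of 0.96 (SE 0.18, limma adjusted p = 0.0373). Prrg4, Tmem60 and the ribosomal protein gene Rpl23 differed by 0.80, 0.69 and 0.68 (limma adjusted p = 0.0445, 0.0325 and 0.0453).

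A few histone genes rose. Of 57 measured, taken by their symbols, 4 were called higher (0.316% of all features were) and none lower. Of the 57, 51 were above 0 and 26 were higher without overlap (8% of all features were). H2bc18 read 7.34, 7.32 and 6.32 in aged knockout, against 5.50, 5.76 and 5.97 in young knockout aorta, a difference of 1.25 (SE 0.22, limma adjusted p = 0.0307). H2bc9 read 8.31, 8.14 and 8.02 in aged knockout, against 7.43, 7.60 and 7.48 in young knockout aorta, a difference of 0.65 (SE 0.11, limma adjusted p = 0.0232). H2aw, named after its values were seen, read 8.30, 8.17 and 8.14 in aged knockout, against 7.61, 7.67 and 7.68 in young knockout aorta, a difference of 0.55 (SE 0.07, limma adjusted p = 0.00892), and was called whichever array was left out. The variant H2az1 read 7.73, 7.82 and 7.85 in aged knockout, against 6.72, 7.07 and 7.28 in young knockout aorta, a difference of 0.78 (SE 0.14, limma adjusted p = 0.0353). The 4 calls became 12 without aged replicate 3, 7 without aged replicate 1, 1 without young replicate 1 and 1 without young replicate 2. Over all features 577, 152, 6 and 3 genes were called higher in these settings, against 67 with all arrays. There were 0 in the fit of the 6 knockout arrays alone and 0 with the B lymphocyte and immunoglobulin covariate, where the median was 0.10. These genes encode core histones, most of which are made in S phase. Cell cycle genes averaged 6.76, 5.65 and 5.85 on the aged knockout arrays, against 5.45, 5.53 and 5.63 on the young knockout arrays, so aged replicate 1 stood far above the others. Of 38, only Rrm1, a subunit of the ribonucleotide reductase that makes deoxynucleotides, was called, at 8.47, 8.0 and 8.05 in aged knockout, against 7.51, 7.55 and 7.59 in young knockout aorta, a difference of 0.62 (SE 0.12, limma adjusted p = 0.0453). Top2a, a topoisomerase of dividing cells, read 7.15, 5.13 and 5.51 in aged knockout, against 4.39, 4.24 and 4.60 in young knockout aorta and was not called (limma adjusted p = 0.0866). Without aged replicate 1 the median of the cell cycle list was 0.19, against 0.53 with it, while that of the histones was 0.22, against 0.25. Hspa8, the constitutive chaperone Hsc70, read 11.88, 12.45 and 11.06 in aged knockout, against 10.42, 10.52 and 10.54 in young knockout aorta, a difference of 1.31 (SE 0.25, limma adjusted p = 0.038), and was alone among 28 heat shock and chaperone genes.

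Markers of tissues beside the aorta also differed between arrays. Skeletal muscle markers averaged 5.09, 5.64 and 5.27 on the aged knockout arrays, against 5.65, 5.54 and 6.97 on the young knockout arrays, with young replicate 3 highest. Cardiac muscle markers averaged 5.56, 5.57 and 6.05 on the aged knockout arrays, against 5.96, 6.94 and 6.56 on the young knockout arrays. Liver markers averaged 5.30, 6.59 and 5.21 on the aged knockout arrays, against 5.51, 5.15 and 5.22 on the young knockout arrays, with aged replicate 2 alone above 6. None of the 25 skeletal, 18 cardiac and 21 liver markers was called by limma. With the skeletal muscle mean as a covariate 107 genes were called, 83 of them among the 156. The part of these tissues in the calls was otherwise not tested.

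The MR-intact arrays gave the test of whether aging differed with the receptor. In MR-intact aorta 50 genes were called with age (0.236%), of which 14 were also called in knockout aorta in the same direction (28% of the 50, 8.97% of the 156). Of the 89 genes called lower in knockout aorta, 85 were below 0 in MR-intact aorta (95.5%, against 47.7% of all features), and of the 67 called higher 54 were above 0 (80.6%, against 52.2%). The difference of the aging changes, knockout minus MR-intact, was called for 0 of 21225 genes (0%) by limma, with 1723 (8.12%) at an unadjusted p under 0.05. Col1a1 differed with age by -1.15 in knockout and -1.08 in MR-intact aorta, and knockout minus MR-intact was -0.07 (SE 0.14, limma adjusted p = 0.92). For Hhip the values were -1.21 and -0.44, and knockout minus MR-intact was -0.77 (SE 0.19, limma adjusted p = 0.609). Matrix lists had a median of -0.26 in knockout and -0.07 in MR-intact aorta, and the contractile list -0.29 and 0.08. The difference of these medians carries no test. Calls in knockout aorta were chosen for a large change there, so that their being larger than in MR-intact aorta for all 89 lower and 62 of 67 higher genes is no finding.

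Ube2ql1 (Entrez 76980), a ubiquitin-conjugating enzyme-like gene, came closest to a called difference. It read 5.16, 5.56 and 5.32 in aged knockout, against 5.99, 5.79 and 5.88 in young knockout aorta, and 7.48, 8.25, 7.58 and 7.18 in aged MR-intact, against 6.12, 5.69 and 5.76 in young MR-intact aorta. Every aged knockout array was below every young knockout array, and every aged MR-intact array was above every young MR-intact array. The difference was -0.54 in knockout aorta (limma adjusted p = 0.243) and 1.76 in MR-intact aorta (limma adjusted p = 0.00359), and knockout minus MR-intact -2.30 (SE 0.30, limma adjusted p = 0.0843). That adjusted p ran from 0.00821 without aged MR-intact replicate 2 to 0.486 without young knockout replicate 1. The next 9 genes by p were Igkv4-69, Snord53, Cela3a, Slc1a4, Smpdl3b, Capn13, Snord34, H2bc9 and Hspa8, each with a limma adjusted p of 0.609. Among them Slc1a4, a transporter of neutral amino acids, read 6.34, 6.14 and 6.46 in aged knockout, against 6.82, 6.93 and 6.79 in young knockout aorta, -0.53 in knockout and 0.09 in MR-intact aorta. Without aged knockout replicate 3, 16 genes were called for this difference, among them Hspa8, H2bc18, Slpi and Ube2ql1. Without aged MR-intact replicate 2, and without aged MR-intact replicate 4, Ube2ql1 was the only call.

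**Figure D4:**
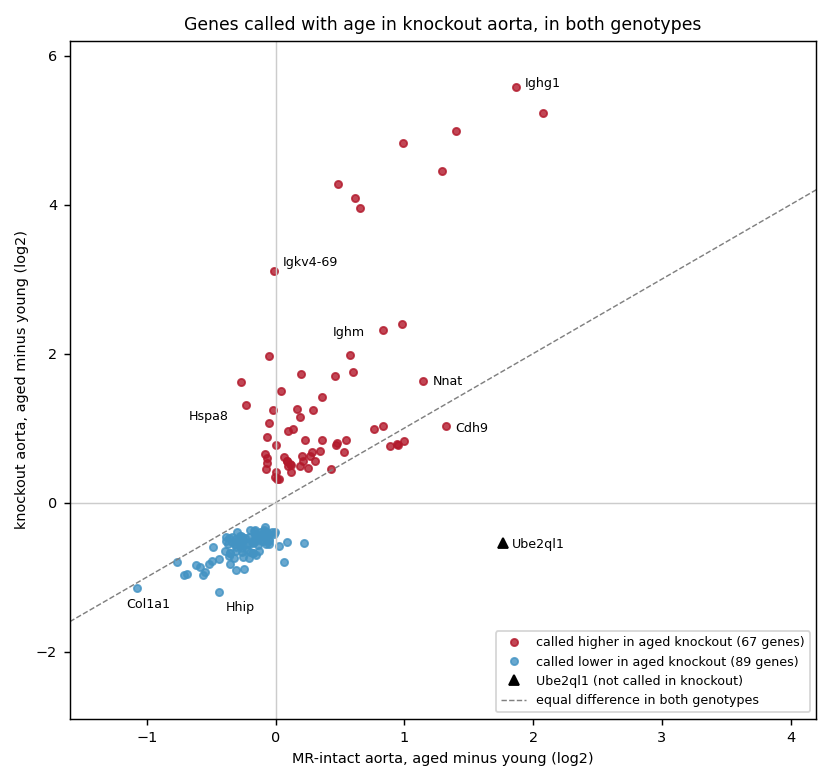
Log2 difference with age in knockout aorta (y) against MR-intact aorta (x) for the 156 genes called in knockout aorta (67 higher in red, 89 lower in blue) and for Ube2ql1 (triangle). All 89 genes called lower lie below the dashed line of equal difference and 85 of them left of 0, and the immunoglobulin genes Ighg1, Ighm and Igkv4-69 lie above the line.

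The number of calls depended on which arrays entered. With 1 knockout array left out it ran from 14 without young knockout replicate 2 to 885 without aged knockout replicate 3. All 156 kept their sign under every setting that measured them. Leaving out arrays could not change a sign, because the arrays of the age groups did not overlap in any of the 156. Of the 156, 115 were still called without aged replicate 1, 92 without aged replicate 2, 156 without aged replicate 3, 27 without young replicate 1, 14 without young replicate 2 and 98 without young replicate 3. A total of 13 genes were called whichever knockout array was left out. These were Hhip, Col1a1, Col1a2, Col3a1, Pdgfrl, Bace2, Adamts2, Fbln1, Entpd2 and Ednra among those lower and H2aw, Pisd-ps1 and Igkv4-69 among those higher. Pisd-ps1, a pseudogene named here because it is in this count, read 7.55, 7.44 and 7.54 in aged knockout, against 6.56, 6.62 and 6.38 in young knockout aorta, a difference of 0.99 (SE 0.14, limma adjusted p = 0.00933).

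**Figure D5:**
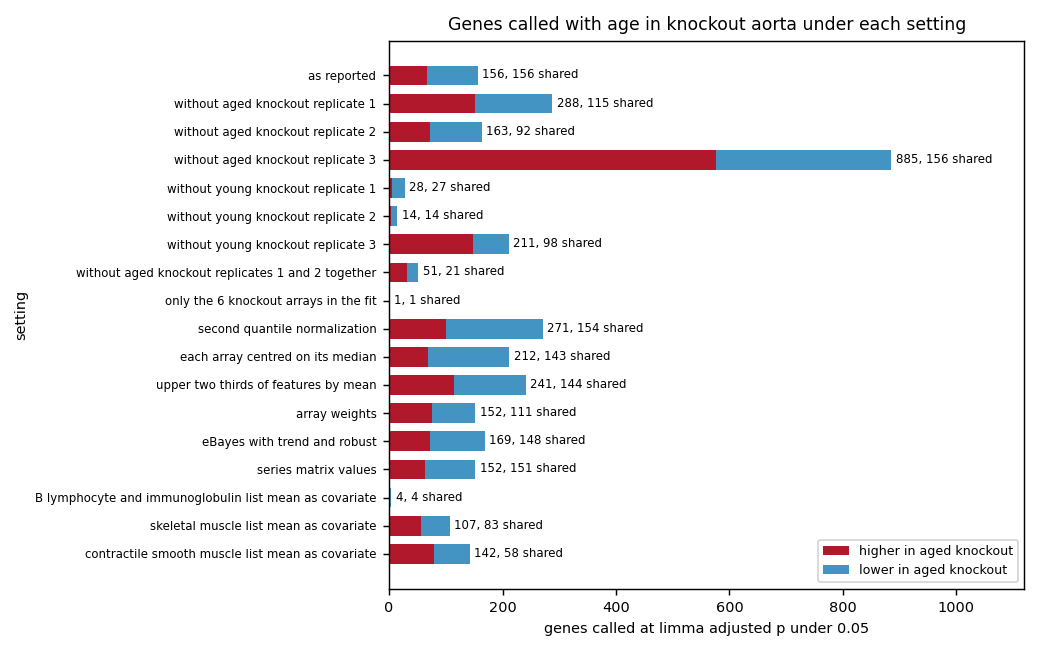
Genes called with age in knockout aorta (x, stacked by direction) under the reported fit and each other setting (rows), with the total and the number shared with the reported 156. Counts run from 1 with only the 6 knockout arrays in the fit to 885 without aged knockout replicate 3.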

How the data were processed

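Total aortic RNA was biotin-labelled and hybridised to 1-colour expression arrays. The authors deposited 1 log2 value per gene and array, made with RMA in the affy package per the submitters' processing notes, which also name limma. Versions of these tools are not stated, and probe-level files were not used here, so depth has no meaning and precision rests on the number of arrays. The workbook's other values, the authors' group means, signed fold changes and p-values, were not used. Its log2 values and those of the deposited series matrix differed by 0.005 at most.

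Of 21225 features 20768 matched RefSeq genes (GRCm38.p6) by Entrez ID, 2545 symbols were updated and 457 kept the files' names. Groups came from the genotype and age labels. A limma 3.58.1 model (R 4.3.3) over all 13 arrays, with 4 group means, gave aging in knockout aorta, aging in MR-intact aorta and their difference. P-values were Benjamini-Hochberg adjusted over all features, and called means an adjusted p under 0.05. SEs draw on all 4 groups, and the other 3 were tighter than the aged knockout arrays. The fit was also run on simulated data in which every group had the same spread. That run cannot show what the wider scatter of the aged knockout arrays does to the calls. Nr3c2 and Nr3c1 had an exact permutation test.

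Gene lists (53, with 1437 measured genes) and all members were chosen with earlier results of these data known. They are described by counts and medians without a test. Named genes were the 30 largest called differences in each direction, called list members, up to 4 list members of smallest p where under 3 were called, up to 4 V segments, and the 10 smallest p of the difference. Predicted genes and small RNAs were left out of the first of these. Of the genes so chosen the text gives a part. Alternatives left out arrays, or changed the samples in the fit, scaling, filter, variance model, deposited table or covariate.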

Additional observations from a re-analysis of the deposited data

Results flagged for a closer look

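In 3 named genes the arrays moved opposite ways with age in knockout and MR-intact aorta, without overlap in either, as in 56 of 21225 features (0.264%). All 3 are among the 10 genes of smallest p for knockout minus MR-intact. That choice favours opposite movement, so the movement is no separate finding. Hspa8 read 10.64, 10.31, 10.60 and 10.68 in aged MR-intact, against 10.76, 10.78 and 10.84 in young MR-intact aorta, a difference of -0.23, while it was 1.31 in knockout aorta. Knockout minus MR-intact was 1.54 (SE 0.34, limma adjusted p = 0.609). Without aged knockout replicate 3 it was 1.91 (limma adjusted p = 0.00917). Snord34, a small nucleolar RNA, read 6.84, 7.69 and 7.27 in aged knockout, against 6.33, 6.15 and 6.62 in young knockout aorta. In aged MR-intact aorta it read 5.78, 6.03, 5.75 and 6.24, against 6.38, 6.36 and 6.34 in young MR-intact aorta. Knockout minus MR-intact was 1.31 (SE 0.26, limma adjusted p = 0.609). Ube2ql1 had knockout minus MR-intact -2.30 (limma adjusted p = 0.0843), with its array values given above.

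Slc1a4 had 1 array away from the others of its group among the 4 aged MR-intact arrays, which read 6.93, 6.80, 6.93 and 6.95. The gap of that array to the next was 0.832 of the group's range, just past Dixon's critical value for 4 samples, and chance sets apart about 1 in 20 such groups.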

How the results depend on the processing

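The direction of all 156 called genes held under each of the 17 settings (where features in the lowest part of the mean levels were left out, for the 144 of them that remained), while counts of calls moved widely. In these genes the age groups did not overlap, so leaving out arrays or changing the filter or variance model could not change a direction. Leaving out 1 array gave 14 to 885 genes called with age in knockout aorta, 3 to 577 higher and 11 to 308 lower, and 0 to 16 called for knockout minus MR-intact. The fewest came without young knockout replicate 2 and the most without aged knockout replicate 3. Without aged knockout replicates 1 and 2 together there were 51 genes, 32 higher and 19 lower, of which 21 were among the 156. With only the 6 knockout arrays in the fit limma called 1 gene, 0 higher and 1 lower, while 2198 had an unadjusted p under 0.05, 1191 of them higher. A second quantile normalization gave 271 genes, 171 of them lower, and median centring, which moved the median of all features to -0.05, gave 143 lower. Leaving out those dim features gave 241 genes, 114 of them higher, with fewer features tested. With the B lymphocyte and immunoglobulin mean as covariate 4 genes were called, 1 higher (S100b) and 3 lower (Col1a2, Adamts2, Entpd2). With the skeletal muscle mean as covariate 51 were lower. For knockout minus MR-intact, 1 gene was called with array weights (Ube2ql1), 1 without aged knockout replicates 1 and 2 together (Ighv1-43) and 1 with the B lymphocyte and immunoglobulin covariate (Orm3). The contractile smooth muscle covariate, chosen after seeing the data, gave 142 genes, 58 of them among the 156, and for knockout minus MR-intact 4 genes (Ube2ql1, Ighv1-55, Igkv8-24 and Igkv4-69). What made the counts move between settings was not tested.

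No paired analysis was possible because the numbers in the titles of aged and young knockout arrays share fewer than 2 values, and replicate numbers here only name arrays. With 3 arrays per group, precision is limited by their number, and the fold change of a gene near background is uncertain.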

Other observations

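No energy or lipid gene of these lists was called. Of 49 oxidative phosphorylation genes limma called none, 48 were above 0 and 12 were higher without overlap (8% of all features were), with a median of 0.14 in knockout and -0.05 in MR-intact aorta. Ndufa6, a subunit of respiratory complex I, read 10.12, 10.37 and 10.67 in aged knockout, against 9.62, 9.84 and 9.89 in young knockout aorta, a difference of 0.60 (limma adjusted p = 0.0505). The list's mean is read beside brown adipocyte markers, which averaged 9.66, 10.10 and 9.86 on the aged knockout arrays, against 9.59, 9.71 and 9.54 on the young knockout arrays, with none of 14 called. The part of brown fat in the values of oxidative genes was not tested. Of 27 cholesterol and lipid synthesis genes limma called none, and 7 were lower without overlap (8.38% of all features were), with a median of -0.21 in knockout and -0.33 in MR-intact aorta. Scd2, a fatty acid desaturase, differed by -0.84 in knockout aorta (limma adjusted p = 0.14).

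Lists often read in aged vessels had medians near that of all features, though single members moved. Of 24 senescence and secretory genes the 2 called were Igfbp3 and Mmp3, both higher (0.316% of all features were). In this list 7 genes were higher without overlap (8% of all features were) and 0 lower. With 13 genes above 0 and 11 below, its median was 0.02. None of 28 osteochondrogenic, 25 circadian clock and 29 corticosteroid receptor system genes was called by limma, with medians of 0.05, -0.03 and -0.01. Spp1, osteopontin, read 5.19, 8.32 and 4.19 in aged knockout, against 4.17, 4.27 and 4.03 in young knockout aorta, so that aged replicate 2 was highest and aged replicate 3 lay among the young arrays.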
